A study of Mus musculus with 4 samples.

Results

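The genes described here are the macrophage CC chemokines Ccl2, Ccl3, Ccl4, Ccl6, Ccl7, Ccl8, Ccl9, Ccl12 and Ccl24 together with the CXC chemokine Pf4, 10 of the 31053 genes counted in immune cells of the mouse left ventricle. They were found by their exact symbols in the gene lists of both deposited matrices, and all 10 were present. The hearts came from C57Bl6J mice that were sham controls or had received DOCA-salt, deoxycorticosterone acetate with salt, which is used as a model of hypertension. Each group held 4 mice. Ventricles were perfused with PBS, digested with Liberase TM, enriched for CD45 on magnetic beads and stained with a hashtag antibody per mouse and 16 surface antibodies. The mice of a group were then pooled, sorted as live CD45+ cells and run as 1 droplet library of RNA 5′ ends. Group and library therefore cannot be told apart, and CD45- cells of the heart, such as fibroblasts and endothelium, were not sampled.

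Chemokines are small secreted proteins that steer leukocytes through G protein-coupled receptors. Ccl2, Ccl7 and Ccl12 draw monocytes through Ccr2, and mouse Ccl8 signals through Ccr8. Ccl3 and Ccl4 are made by activated macrophages and by cytotoxic lymphocytes. Ccl6 and Ccl9 are rodent chemokines of myeloid cells that act on Ccr1. Ccl24 attracts eosinophils through Ccr3, and Pf4 (Cxcl4) is best known from platelet granules but is also transcribed by resident macrophages.

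The sham library gave 4061 cells (620 to 1274 per mouse) and the DOCA-salt library 6865 cells (763 to 2171 per mouse), with a median of 2808 and 3228 molecules (UMIs) per cell. In all, 41 barcode sequences occurred in both libraries and 37 of them were used in both. Clustering was run without the 10 genes, so that none of them set a cluster. The class called macrophage-like held 1014 cells, 36 to 326 per mouse, and showed all 10 of its markers, among them Adgre1, C1qa and Mrc1. It was divided into 5 clusters, named here by a leading gene. The Lyve1-led cluster (131 sham and 198 DOCA-salt cells) was led also by Folr2 and held other genes of resident cardiac macrophages. The Chil3-led cluster (16 and 209 cells) was led by Plac8, Fn1 and Ccr2, genes of monocyte-derived cells. The Birc5-led cluster (46 and 141 cells) was led by genes of the cell cycle, and the Egr1-led cluster (65 and 67 cells) by early response genes such as Fos, Fosb and Dusp1. The Kcnq1ot1-led cluster (39 and 102 cells) had a median of 1085 UMIs per cell. Levels below are CPM, the UMIs of a gene scaled to 1e+06 UMIs of a class in a mouse. Since a UMI from the 5′ end counts a molecule, CPM were compared between genes without scaling for length.

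On mouse chromosome 11 of the mm10 build, 8 of the 10 genes lie in 2 groups. Ccl2 (chr11:82035571-82037453), Ccl7 (chr11:82045712-82047525), Ccl12 (chr11:82101845-82103400) and Ccl8 (chr11:82115185-82116799) lie on the plus strand, with 8258, 54319 and 11784 bases between neighbours. After a gap of 1456119 bases come Ccl9 (chr11:83572919-83578636) and Ccl6 (chr11:83587882-83593087), both on the minus strand and 9245 bases apart, then Ccl3 (chr11:83647844-83649355, minus) and Ccl4 (chr11:83662584-83664683, plus). Pf4 (chr5:90772435-90773383, plus) and Ccl24 (chr5:135569937-135573049, minus) lie on chromosome 5. No run of 50 bases was shared between the transcripts of any pair of the 10 genes. The gene body of Ccl2 overlaps Gm17268 and that of Ccl6 overlaps E230016K23Rik, each on the opposite strand.

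Each gene had its own distribution over the immune classes, and only some were macrophage genes. Pf4 was highest in macrophage-like cells, at 1467 ± 399 CPM (SD, n = 8 mice), and no mouse reached the lowest of these values (778 CPM) in another class shown. The next class was neutrophil-like cells, at 52.8 CPM. Ccl24 (136 ± 98.3 CPM), Ccl12 (442 ± 275), Ccl7 (148 ± 142) and Ccl8 (39.6 ± 43.7) also had their highest means in macrophage-like cells. Their means in the 6 other classes shown were at or below 25.5 CPM, although single mice overlapped. Ccl2 was 271 ± 156 CPM in macrophage-like cells and 130 ± 55.6 in classical monocyte-like cells (6 mice with at least 5 such cells), and these ranges overlapped.

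The other 4 genes had their highest mean outside the macrophages. Ccl6 was highest in neutrophil-like cells, at 6475 ± 1388 CPM over the 5 mice with at least 5 of them, then in classical monocyte-like cells at 2066 ± 442. Nonclassical monocyte-like cells (1122 ± 280) and macrophage-like cells (1064 ± 368) followed with overlapping ranges. Ccl9 took a different order, with 427 ± 110 CPM in classical monocyte-like, 228 ± 73.9 in macrophage-like and 102 ± 23.8 in nonclassical monocyte-like cells, and only 33.4 in neutrophil-like cells. Ccl3 and Ccl4 were genes of NK-like cells, at 560 ± 187 and 1948 ± 952 CPM. No mouse with at least 5 cells of another class shown had a level of either there as high as the lowest NK-like level. Unnamed clusters were not part of this comparison.

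**Figure D1:**
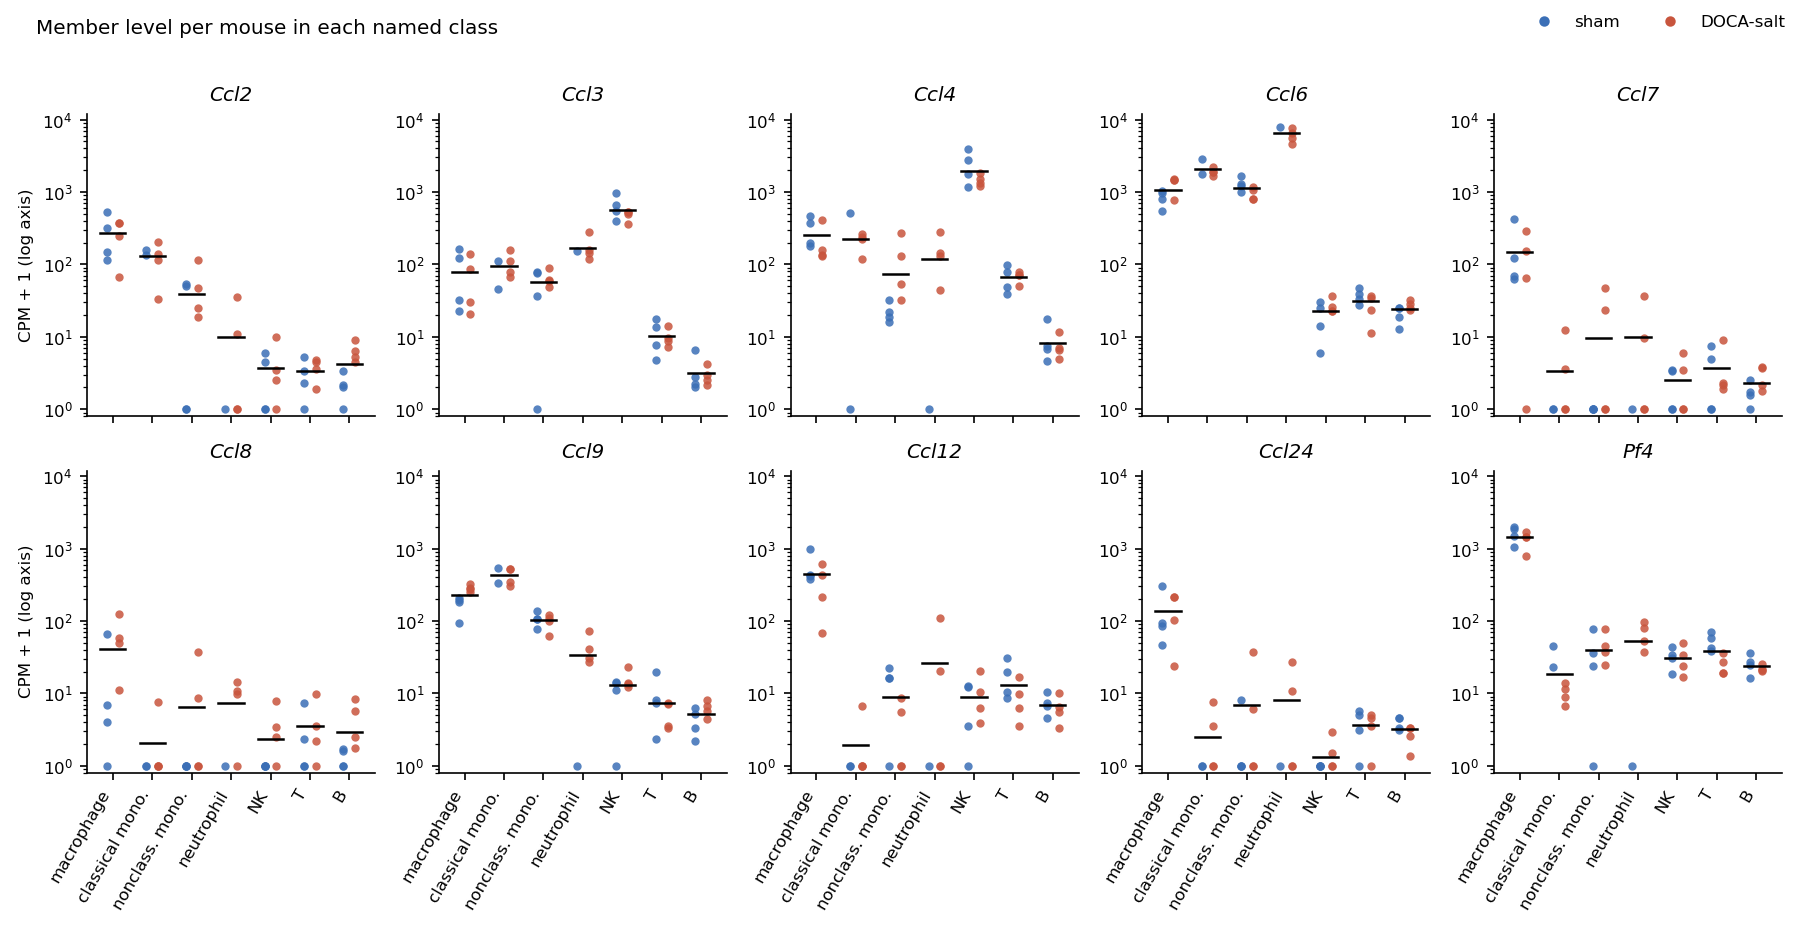
Levels of the 10 genes in 7 immune classes, as CPM + 1 on a log axis. Each point is a mouse with at least 5 cells of the class (blue sham, red DOCA-salt) and the black bar is the mean over mice. Pf4 stands highest in macrophage-like cells, Ccl3 and Ccl4 in NK-like cells, and Ccl6 in neutrophil-like cells.

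Shares of macrophage-like cells with at least 1 UMI put Ccl9 above Ccl2 and Ccl4, although it was below them by level. Ccl6 was found in 69.5% and Pf4 in 67.8% of 1014 cells, Ccl9 in 40.7%, Ccl12 in 30.2%, Ccl2 in 22.1%, Ccl4 in 19.6%, Ccl7 in 15%, Ccl24 in 14.0%, Ccl3 in 9.76% and Ccl8 in 7.50%. B-like cells, which should make none of these genes in quantity, gave 6.51% for Ccl6, 5.88% for Pf4 and 0.471% to 1.52% for the others. Median depth was 3453.5 UMIs in macrophage-like and 2866.5 in B-like cells. After thinning to 1000 UMIs a cell, Pf4 led in macrophage-like cells with 51.2% of 918 cells, against 2.05% in B-like cells, and Ccl6 followed with 42.9% against 2.42%. Ccl12 (18.0%) and Ccl9 (17.8%) were then close. At this depth 16.3% of macrophage-like cells held none of the 10 genes, 31.3% held 1 and 27.6% held 2.

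Some of the genes were concentrated in very few cells. The 10 macrophage-like cells with the most UMIs of a gene, about 1% of the class, held 44.0% of all Ccl2, 44.0% of Ccl7 and 59.3% of Ccl8 molecules. For Ccl6 they held 15.7% and for Pf4 8.75%. A single cell of sham mouse 2 carried 126 of that mouse's 172 Ccl2 molecules. Ccl2 in that mouse was 530 CPM with this cell and 151 CPM without it.

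The Ccr2 ligands Ccl2, Ccl7 and Ccl12 did not separate the groups. In macrophage-like cells Ccl2 was 148, 530, 322 and 115 CPM in sham mice 1 to 4 and 371, 368, 66.9 and 247 CPM in DOCA-salt mice 1 to 4. Both groups ran from near 100 or below to over 350, and the ranges overlapped. The log2 change, DOCA-salt over sham, was -0.07 ± 0.41 (SE), with an adjusted p of 1.0 by edgeR. Ccl12 was 427, 376, 995 and 416 CPM in the sham mice and 607, 435, 66.9 and 216 CPM in the DOCA-salt mice, a log2 change of -0.67 ± 0.41 with an adjusted p of 0.707. Ccl7 was 61.0, 123, 427 and 68.3 CPM in the sham mice and 290, 154, 0 and 63.5 CPM in the DOCA-salt mice, a log2 change of -0.18 ± 0.61 with an adjusted p of 0.990. Sham mouse 3 was high and DOCA-salt mouse 3 low for both Ccl7 and Ccl12.

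Among macrophage clusters Ccl2 had its highest mean in the Chil3-led cluster (634 CPM, 1 sham and 4 DOCA-salt mice with at least 5 cells, 0 to 1792). The means of Ccl7 and Ccl12 were highest in the Birc5-led cluster, at 530 and 1171 CPM, but their medians there were 0 and 192 CPM. Sham mouse 3 was far above the other mice, with 3544 CPM of Ccl7 and 6365 CPM of Ccl12. The cell with the most UMIs of each gene held 26 of that mouse's 49 Ccl7 and 45 of its 88 Ccl12 molecules in the cluster. In the Lyve1-led cluster Ccl12 was more even, from 133 to 800 CPM over the 8 mice. No cluster stood outside its neighbours' ranges for these 3 genes.

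Ccl8, a ligand of Ccr8 in the mouse, was the rarest of the 10 in macrophage-like cells. It was 0, 3.08, 5.85 and 65.2 CPM in the sham mice and 126, 58.2, 10.3 and 48.8 CPM in the DOCA-salt mice. Sham mice 1 to 3 were below every DOCA-salt mouse, and sham mouse 4 was above 3 of them. The log2 change was 1.59 ± 0.64, with an unadjusted p of 0.0242 and an adjusted p of 0.445 in edgeR. Without sham mouse 4 it was 4.36 (adjusted p = 0.0805), and without DOCA-salt mouse 1 it was 0.91 (adjusted p = 0.760). Thinned to 1000 UMIs, Ccl8 was found in 0.794% of 252 sham cells (95% Clopper-Pearson interval 0.0963% to 2.84%) and in 5.26% of 666 DOCA-salt cells (3.69% to 7.23%), without thinning in 2.36% of 297 and 9.62% of 717. These intervals cover counting error only, not the spread between mice. DOCA-salt mouse 1 gave 326 of the 717 cells and held 227 of all 322 Ccl8 molecules of the class. Birc5-led cells were 31.0% of its macrophage-like cells, against 5% to 14.7% in the other DOCA-salt mice. Ccl8 was highest in the Birc5-led cluster, at 155 ± 191 CPM, and no Ccl8 molecule was counted in the 132 Egr1-led cells. The part of the cluster mix in the Ccl8 level of DOCA-salt mouse 1 was not tested.

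**Figure D2:**
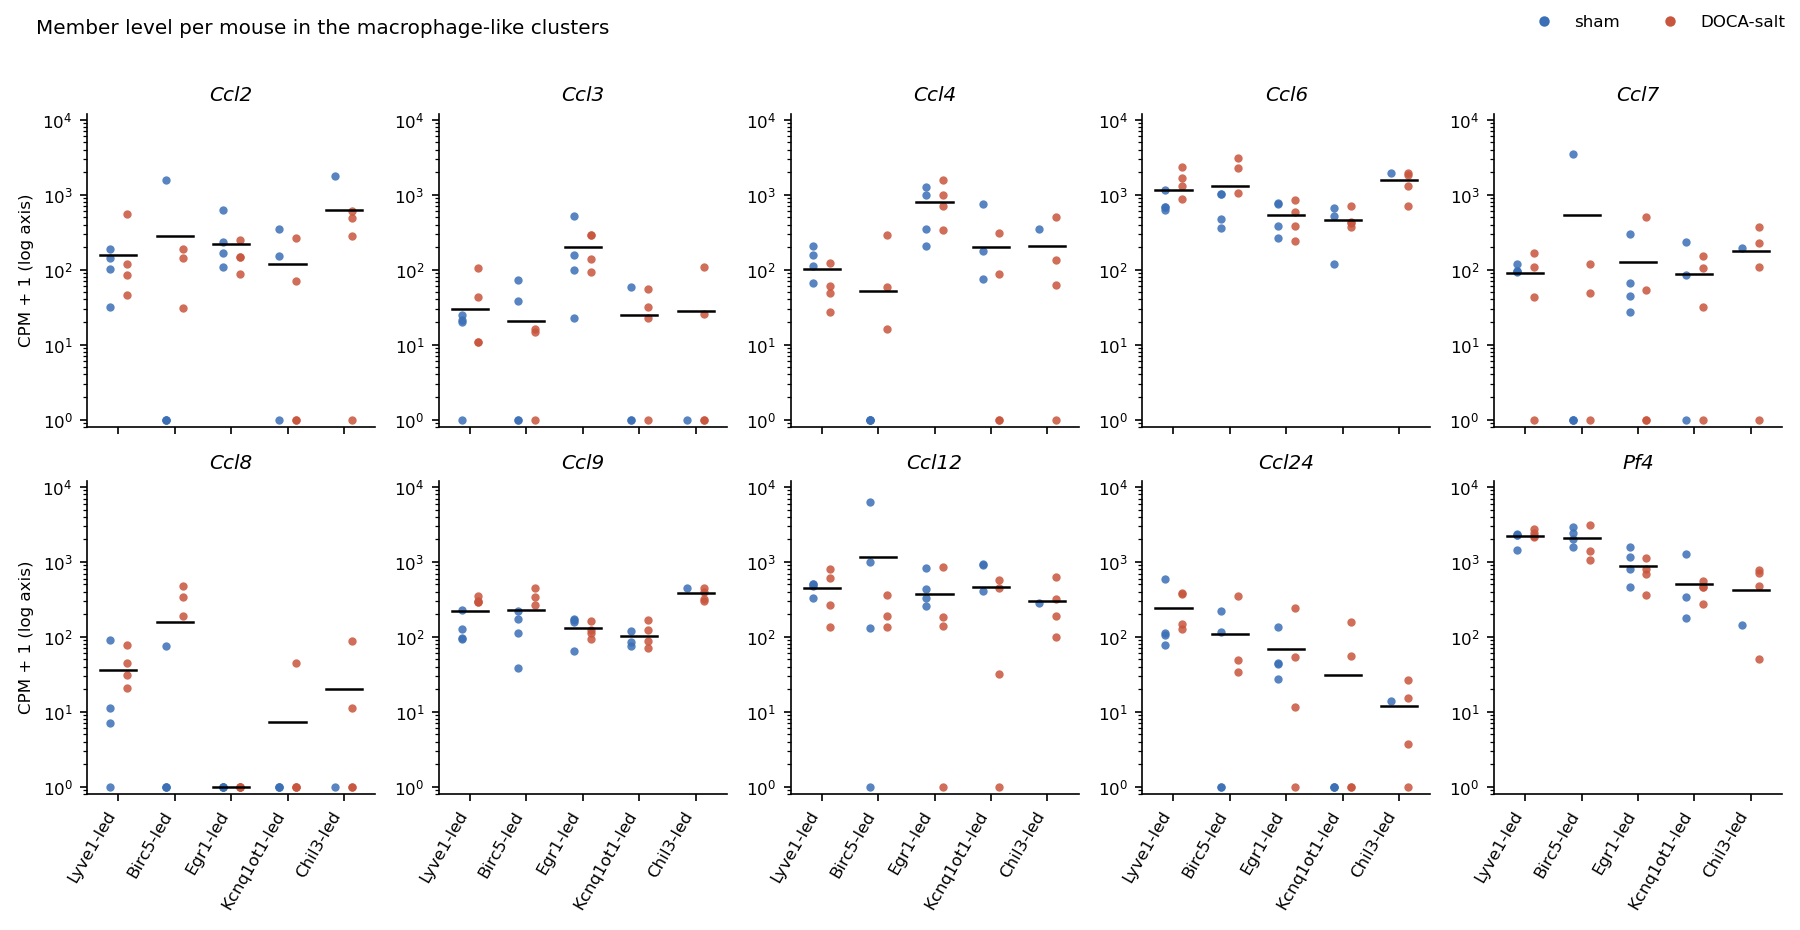
Levels of the 10 genes in the 5 macrophage clusters, as CPM + 1 on a log axis, with 1 point per mouse that has at least 5 cells of the cluster (blue sham, red DOCA-salt) and the mean as a black bar. Pf4 and Ccl24 have their highest means in the Lyve1-led cluster, Ccl3 and Ccl4 in the Egr1-led cluster, and Ccl2, Ccl6 and Ccl9 in the Chil3-led cluster, whose 5 mice are 1 sham and 4 DOCA-salt, and neighbours in each order overlap.

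Ccl3 and Ccl4 went with the early response cluster among macrophages. The Egr1-led cluster held 202 ± 161 CPM of Ccl3 and 803 ± 490 CPM of Ccl4. Ccl3 was at or below 28.5 CPM on average in the other 4 clusters, and Ccl4 ran from 51.5 CPM in the Birc5-led to 208 CPM in the Chil3-led cluster. The summed level of the early response genes, which include the genes that lead this cluster, was 31486 CPM in Egr1-led cells, 8233 in Chil3-led, 4749 in Kcnq1ot1-led, 2822 in Lyve1-led and 1417 in Birc5-led cells. Egr1-led cells were 16.5% to 33.3% of the macrophage-like cells of sham mice and 7.06% to 23.3% of those of DOCA-salt mice. The part of these genes' state in the levels of Ccl3 and Ccl4 was not tested.

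In macrophage-like cells as a whole, Ccl4 was 375, 197, 468 and 180 CPM in the sham mice and 413, 135, 129 and 156 CPM in the DOCA-salt mice. DOCA-salt mouse 1 stood with the high sham mice and the other DOCA-salt mice lay below every sham mouse. This was a log2 change of -0.43 ± 0.36, with an adjusted p of 0.838 in edgeR. For Ccl3 the values were 122, 21.6, 164 and 31.0 CPM in the sham mice and 86.2, 29.1, 139 and 19.5 CPM in the DOCA-salt mice, which overlapped fully. Within the Lyve1-led cluster Ccl4 was 209, 155, 112 and 66.3 CPM in the sham mice and 48.5, 120, 59.1 and 25.9 CPM in the DOCA-salt mice, a log2 change of -0.88 ± 0.39 with an adjusted p of 0.444. Without DOCA-salt mouse 2 this adjusted p was 0.0494, and with other single mice left out it reached 0.819. In the Egr1-led cluster, where Ccl4 was abundant, its log2 change was 0.33 ± 0.44 with an adjusted p of 0.904.

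NK-like cells are cytotoxic lymphocytes that secrete Ccl3, Ccl4 and Ccl5 when activated. Thinned to 1000 UMIs, 40.4% of 1764 NK-like cells had a Ccl4 and 28.0% a Ccl3 molecule, against 0.559% and 0.290% of B-like cells. Without thinning the NK-like shares were 62.7% and 52.6%, at a median of 3345.5 UMIs. Ccl4 in NK-like cells was 2726, 1795, 3961 and 1190 CPM in the sham mice and 1517, 1226, 1343 and 1827 CPM in the DOCA-salt mice. Sham mice spread widely and DOCA-salt mice were close together, and the ranges overlapped. In edgeR the log2 change was -0.70 ± 0.20 with an adjusted p of 0.115, against 0.742 in DESeq2. A single cell of sham mouse 3 held 363 of that mouse's 832 Ccl4 molecules. Without sham mouse 3 the log2 change was -0.38 (adjusted p = 0.551), and without sham mouse 4, the lowest sham mouse, it was -0.95 (adjusted p = 0.00292). Ccl3 in NK-like cells was 667, 550, 957 and 393 CPM in the sham mice and 531, 355, 532 and 497 CPM in the DOCA-salt mice, a log2 change of -0.40 ± 0.16 with an adjusted p of 0.422.

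Ccl6 and Ccl9 are neighbours on chromosome 11, are ligands of Ccr1 and gave the lowest p-values of the family in macrophages, so their start regions are printed to compare them. Both come from RefSeq (GRCm38.p6), run 5′ to 3′ on the minus strand and hold 250 bases before and 30 bases after the start site. RefSeq promoters were found for 6 of the 10 genes. Capitals mark runs of at least 10 bases that also occur, on the same strand, in the other gene's window.
Ccl6 (chr11:83593058-83593337): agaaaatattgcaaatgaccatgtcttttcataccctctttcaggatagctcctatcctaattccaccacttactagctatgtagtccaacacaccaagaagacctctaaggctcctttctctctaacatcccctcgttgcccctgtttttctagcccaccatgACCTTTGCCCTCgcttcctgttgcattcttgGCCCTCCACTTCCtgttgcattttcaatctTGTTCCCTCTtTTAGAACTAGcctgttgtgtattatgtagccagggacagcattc
Ccl9 (chr11:83578607-83578886): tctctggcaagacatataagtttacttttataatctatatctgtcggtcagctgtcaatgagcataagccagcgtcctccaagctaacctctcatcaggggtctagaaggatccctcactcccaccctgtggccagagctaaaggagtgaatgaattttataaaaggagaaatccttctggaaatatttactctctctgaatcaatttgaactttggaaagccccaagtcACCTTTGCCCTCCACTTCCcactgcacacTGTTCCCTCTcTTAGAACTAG
The shared runs cover 45 of 280 bases of Ccl6 and 39 of 280 of Ccl9. The stretch ACCTTTGCCCTCCACTTCC of Ccl9 is unbroken there, and its parts ACCTTTGCCCTC and GCCCTCCACTTCC, which overlap by shared letters in Ccl9, occur apart in Ccl6. Searched on both strands of 32851 RefSeq promoters of 300 bases, ACCTTTGCCCTC was in 4 (0.0122%), GCCCTCCACTTCC in 6 (0.0183%), TGTTCCCTCT in 47 (0.143%) and TTAGAACTAG in 18 (0.0548%). These letters are a description of the windows and not of a factor's binding.

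In macrophage-like cells Ccl9 was 192, 210, 93.6 and 183 CPM in the sham mice and 279, 284, 252 and 329 CPM in the DOCA-salt mice (170 ± 51.8 against 286 ± 31.7, SD, n = 4 each). Every DOCA-salt mouse was above every sham mouse. Ccl9 was the 1 gene of the 10 with groups apart in that direction, against 3% of the 4540 genes tested in these cells. Its log2 change was 0.72 ± 0.20, with an unadjusted p of 0.00273 and an adjusted p of 0.203 in edgeR, so it did not pass. Ccl6 was 802, 959, 538 and 1018 CPM in the sham mice and 774, 1464, 1504 and 1453 CPM in the DOCA-salt mice. DOCA-salt mice 2 to 4 lay above all sham mice, and DOCA-salt mouse 1 lay among them. Its log2 change was 0.60 ± 0.22, with an adjusted p of 0.349 in edgeR, and without DOCA-salt mouse 1 it was 0.79 with an adjusted p of 0.0279. Leaving out other single mice took the edgeR value up to 0.716.

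The mix of macrophages differed between the groups beside these values. Chil3-led cells were 0% to 9.90% of macrophage-like cells in sham and 13.3% to 41.7% in DOCA-salt mice. In the DOCA-salt mice they held 711, 1957, 1839 and 1296 CPM of Ccl6 and 296, 318, 441 and 393 CPM of Ccl9, which overlapped the levels in Lyve1-led cells. With those cells left out, a setting chosen after the data were seen, the log2 changes were 0.81 for Ccl6 (adjusted p = 0.0927) and 0.87 for Ccl9 (adjusted p = 0.0837). With the 4 other clusters given equal weight, limma 3.58.1 was fitted to log2(mean CPM + 10) in place of edgeR. It gave 0.85 (adjusted p = 0.0780) for Ccl6 and 0.79 (adjusted p = 0.266) for Ccl9.

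Within the Lyve1-led cluster, the macrophages with genes of resident cells, Ccl9 was 95, 125, 92.0 and 227 CPM in the sham mice and 291, 287, 295 and 347 CPM in the DOCA-salt mice. The DOCA-salt mice were close together and all above sham mouse 4, the highest sham mouse. Groups stood apart in this direction for 1 of the 10 genes, against 3.38% of the 2873 genes tested. Its log2 change was 1.0 ± 0.23, with an unadjusted p of 0.000262 and an adjusted p of 0.0502 in edgeR, just above the threshold of 0.05, and 0.0230 in DESeq2. Leaving out each mouse in turn moved the edgeR value between 0.00270, without sham mouse 4, and 0.239. Over all 15 alternatives to the processing the adjusted p reached 0.355.

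Ccl6 in the Lyve1-led cluster was 684, 681, 624 and 1171 CPM in the sham mice and 872, 1322, 2364 and 1664 CPM in the DOCA-salt mice. Only sham mouse 4 reached into the DOCA-salt range. On the log2 scale the change was 0.86 ± 0.23, with an adjusted p of 0.0997 in edgeR and 0.0238 in DESeq2. Without sham mouse 4 the edgeR value was 0.0142 and without DOCA-salt mouse 1 it was 0.0102, and with other single mice left out it reached 0.298. Stricter filters on cells gave a log2 change of 0.60 with an adjusted p of 0.551. The Birc5-led cluster, cells with cell cycle genes, had 1011, 474, 362 and 1020 CPM of Ccl6 in the sham mice and 1043, 2281, 1288 and 3064 CPM in the DOCA-salt mice. The groups did not overlap, by 1020 against 1043 CPM, as for 1.31% of the 306 genes tested there, and DOCA-salt mouse 3 gave only 3 cells. Its log2 change there was 1.49 ± 0.41 with an adjusted p of 0.257, and 1.79 with an adjusted p of 0.0246 without DOCA-salt mouse 1. Leaving out other single mice took that adjusted p up to 0.505.

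**Figure D3:**
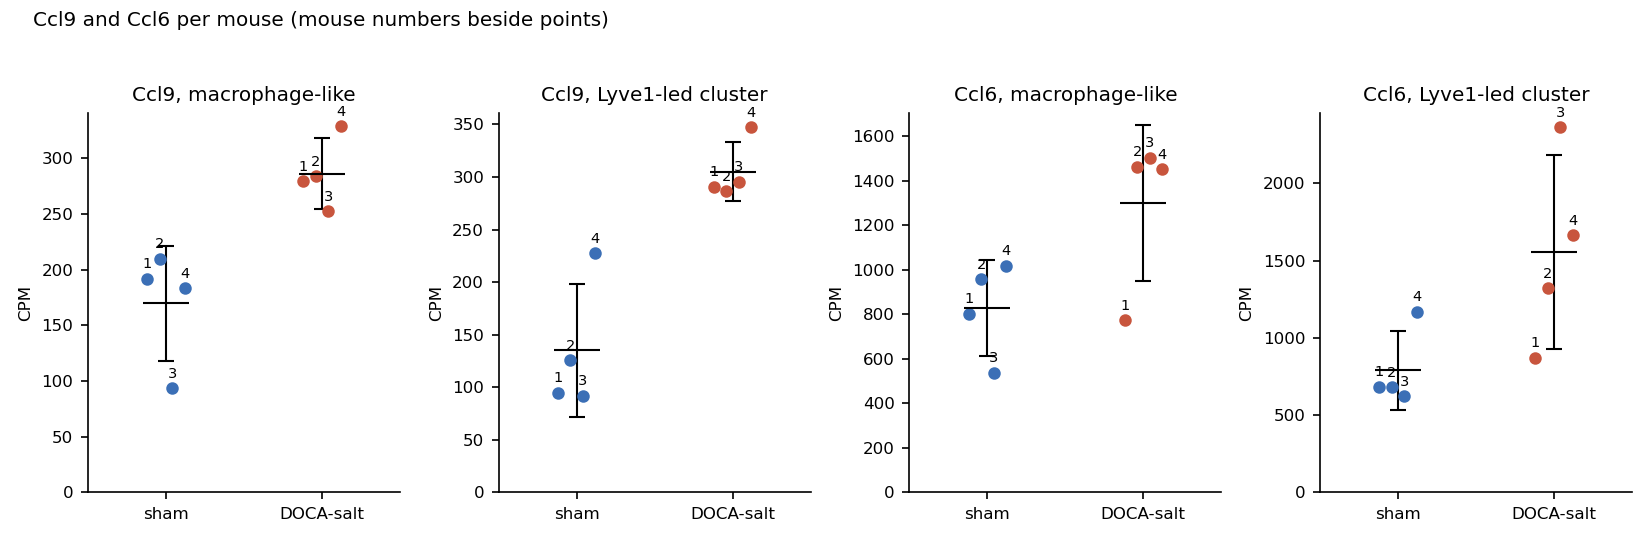
Ccl9 and Ccl6 in macrophage-like cells and in the Lyve1-led cluster, in CPM on linear axes from 0. Each numbered point is a mouse, and the bar and line are the mean ± SD of 4 mice. Ccl9 has no overlap between sham and DOCA-salt mice in either set of cells, and Ccl6 overlaps through DOCA-salt mouse 1 and, in the Lyve1-led cluster, sham mouse 4.

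Neutrophils and monocytes, the other cells with much Ccl6 or Ccl9, were measured through their markers. In Lyve1-led cells 6 of 8 neutrophil markers had a UMI, with Cxcr2 and Ly6g at 0, and their sum was 17.9 to 56.9 CPM in the sham mice and 63.0 to 165 CPM in the DOCA-salt mice. Scaled to the markers' level in neutrophil-like cells, those sums correspond to 1.80 CPM of Ccl6 in the sham mice and 4.30 CPM in the DOCA-salt mice. Measured over pooled mice, Ccl6 was 866 and 1416 CPM. The scaling takes markers and chemokine to be carried in the same proportion. Only 14 sham cells were neutrophil-like and 15 classical monocyte-like. Of the 8 classical monocyte markers 7 had a UMI, with Vcan at 0, at 76.0 to 143 CPM in the sham mice and 59.1 to 315 CPM in the DOCA-salt mice. They correspond to 30.2 and 35.4 CPM of Ccl6, and to 6.46 and 8.28 CPM of Ccl9 out of 157 and 309 CPM. In macrophage-like cells as a whole all 8 monocyte markers were found, at 135 to 741 CPM in the sham mice and 536 to 1210 CPM in the DOCA-salt mice. These correspond to 109 and 159 CPM of Ccl6, out of 883 and 1087 CPM, and to 23.2 and 37.3 CPM of Ccl9, out of 177 and 288 CPM. In Birc5-led cells 7 of 8 neutrophil markers had a UMI, at 0 to 86.1 CPM in sham mice but 85.7 to 2761 CPM in DOCA-salt mice. Ccl6 carried in their proportion would be 2.08 of 718 CPM in sham and 23.8 of 1320 CPM in DOCA-salt Birc5-led cells. Mice are pooled in these values, and DOCA-salt mouse 1, with a marker sum of 85.7 CPM, gave 361574 UMIs. DOCA-salt mice 2 and 4, which had the most Ccl6 there, had sums of 2761 and 1963 CPM but only 66643 and 20886 UMIs. Classical monocyte markers, scaled alike, correspond in this cluster to 11.4 CPM of Ccl6 for sham and 69.6 CPM for DOCA-salt. The part of either source in the Ccl6 or Ccl9 of macrophage-like, Lyve1-led or Birc5-led cells was not tested.

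Ccl24 and Pf4 had their highest means in the Lyve1-led cluster. Pf4 was 2231 ± 366 CPM in the Lyve1-led cluster (n = 8), 2069 ± 772 in the Birc5-led cluster (n = 7) and 872 ± 399 in the Egr1-led cluster (n = 8). It was 505 ± 361 in the Kcnq1ot1-led cluster (n = 7) and 426 ± 324 in the Chil3-led cluster (n = 5). Ccl24 was 238 ± 186 CPM in the Lyve1-led, 108 ± 130 in the Birc5-led and 68.6 ± 80.6 in the Egr1-led cluster, with overlapping ranges. It was 30.1 CPM in the Kcnq1ot1-led and 11 CPM in the Chil3-led cluster. Pf4 and Ccl24 were themselves among the leading genes of the Lyve1-led cluster, though not used to form it.

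Pf4 in macrophage-like cells was 1508, 1052, 1966 and 1868 CPM in the sham mice and 778, 1704, 1426 and 1437 CPM in the DOCA-salt mice. DOCA-salt mouse 1, whose macrophage-like cells were 41.7% Chil3-led, was lowest, and the ranges overlapped. The part of that share in the Pf4 level of this mouse was not tested. The log2 change of Pf4 was -0.29 ± 0.22 with an adjusted p of 0.798 in edgeR. In the Lyve1-led cluster it was 0.15 ± 0.15, with 2317, 1440, 2342 and 2289 CPM in the sham mice and 2191, 2423, 2719 and 2124 CPM in the DOCA-salt mice. Ccl24 was 305, 46.3, 93.6 and 83.8 CPM in the sham mice and 23.2, 103, 216 and 215 CPM in the DOCA-salt mice, a log2 change of 0.14 ± 0.60 with an adjusted p of 0.999. Platelet markers in macrophage-like cells were near 0. Of 10, 5 had a UMI, at 0 to 12.3 CPM in the sham mice and 4.88 to 32.0 CPM in the DOCA-salt mice, and Gp9, Gp5, Tubb1, Gp6 and Alox12 were at 0.

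In T-like cells Pf4 was 42.1, 68.7, 38.0 and 57.5 CPM in the sham mice and 35.1, 26.4, 18.0 and 18.2 CPM in the DOCA-salt mice. Every DOCA-salt mouse was below every sham mouse, as for 2.85% of the 6527 genes tested in T-like cells. Pf4 had a log2 change of -1.09 ± 0.25, with an adjusted p of 0.0699 in edgeR, 0.0269 in DESeq2 and 0.0133 in edgeR without DOCA-salt mouse 1. With other single mice left out, the edgeR value reached 0.289. These levels were 3.47% and 2.22% of those in macrophage-like cells. The macrophage genes C1qa, C1qb and C1qc moved beside Pf4 in T-like cells, with log2 changes of -0.77, -0.57 and -0.85. Macrophage RNA in the proportion of those 3 genes would carry 25.1 of 54.1 CPM of Pf4 in sham and 12.8 of 25.1 CPM in DOCA-salt T-like cells. All 10 macrophage markers together were at 251 to 620 CPM in the sham mice and 192 to 413 CPM in the DOCA-salt mice, with overlap. The part of macrophage RNA in the change of Pf4 was not tested.

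Across all comparisons, none of the 10 genes passed an adjusted p of 0.05 in edgeR. In macrophage-like cells 0 of 10 were called, where 0.176% of the 4540 genes tested were, with 3 at an unadjusted p under 0.05 (Ccl6, Ccl8, Ccl9) and 0 called by DESeq2. Changes were positive for 4 and negative for 6, with a median log2 change of -0.13 against 0.01 over all genes. In the Lyve1-led cluster 8 were tested and 0 called (0.487% of all genes), with 3 under an unadjusted 0.05 and 2 called by DESeq2 (Ccl9 and Ccl6). There 6 changes were positive and 2 negative, with a median of 0.37 against 0.01 over all genes. Of 2 tested in the Birc5-led cluster edgeR called 0 (0.327% of all genes), with 1 under an unadjusted 0.05. Of 4 tested in the Egr1-led cluster it called 0 (0.689%), with 0 under an unadjusted 0.05. DESeq2 called 0 in both. None of the genes passed the filter on low counts in the Kcnq1ot1-led cluster, and the Chil3-led cluster had too few sham cells for a test.

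**Figure D4:**
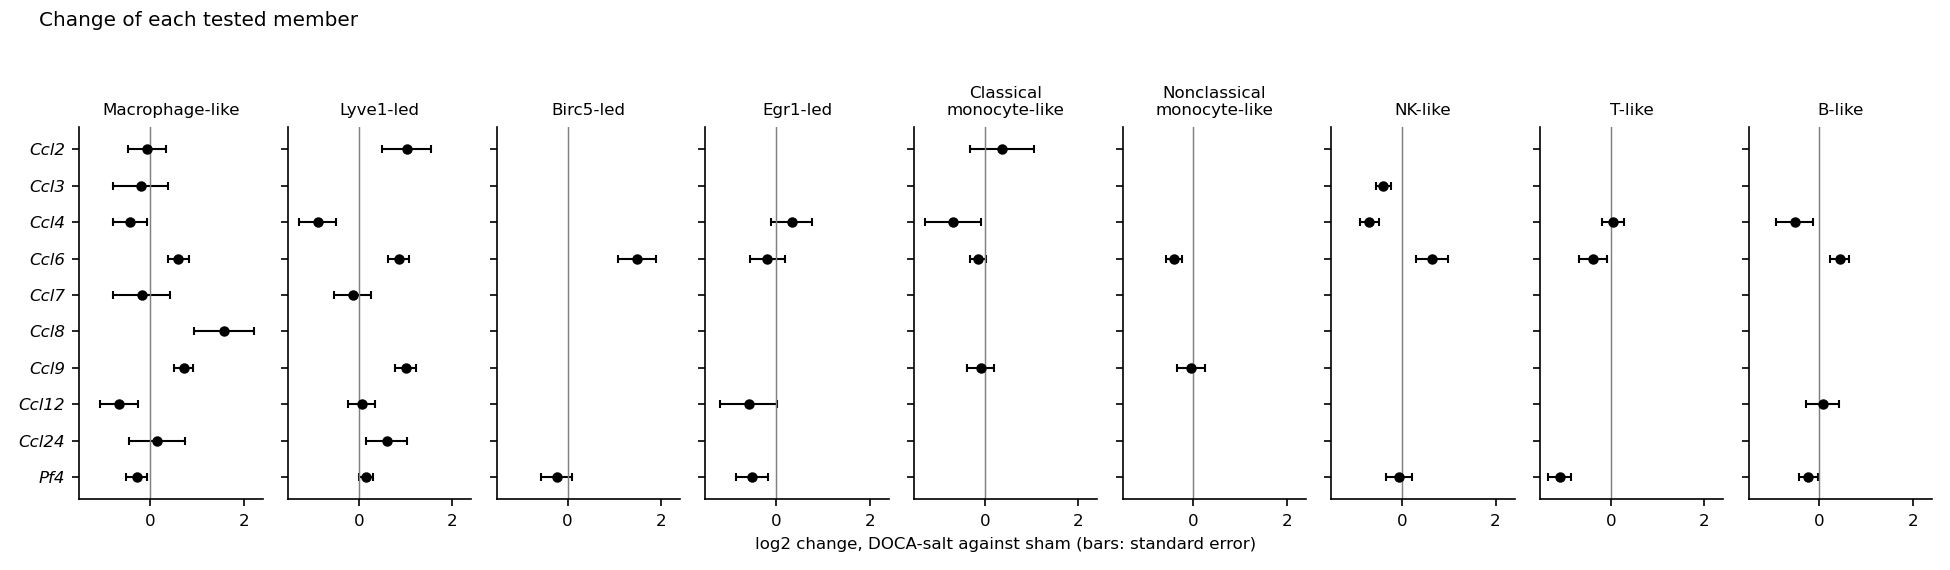
Log2 change ± SE (DOCA-salt over sham, edgeR) of each tested gene in 9 classes and clusters. Ccl9 (1.0) and Ccl6 (0.86) in the Lyve1-led cluster and Pf4 (-1.09) in T-like cells lie farthest from 0 relative to their SE, and no change passed an adjusted p of 0.05.

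Whether an effect differed between macrophage clusters was tested against the Lyve1-led cluster with the mouse as a block. The Egr1-led cluster differed by -1.07 ± 0.34 for Ccl6, -1.27 ± 0.46 for Ccl9 and 1.68 ± 0.57 for Ccl4, on the log2 scale. None passed, with adjusted p values of 0.652, 0.769 and 0.690 in edgeR, where 0.0833% of 1201 genes did. For Ccl12 the Birc5-led cluster differed by -2.22 ± 0.72 with an adjusted p of 0.988, and no gene of 1256 passed (0%). No gene of 1003 passed for the Kcnq1ot1-led cluster either (0%).

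Some of the genes were found in the same cells. Among 918 macrophage-like cells thinned to 1000 UMIs, Pf4 was found in 88.7% of cells with Ccl24 and in 48.1% of those without it. Ccl12 was found in 48.5% of cells with Ccl7 against 15.6%, and Ccl2 in 39.4% of cells with Ccl7 against 9.39%. Ccl4 was found in 48.8% of cells with Ccl3 against 8.55%. Ccl9 was found in 22.8% of cells with Ccl6 against 13.9%, a smaller gap.

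Some of these pairs, but not all, were also among the highest in a description over 45 sums of a macrophage or monocyte cluster in a mouse. These sums share mice, libraries and depth, so the Pearson r below is no test. Ccl7 and Ccl12 had r = 0.80, Ccl24 and Pf4 0.75, Ccl12 and Pf4 0.75, Ccl6 and Ccl9 0.67 and Ccl2 and Ccl7 0.66. Ccl3 and Ccl4 had 0.41, and Ccl6 and Ccl12 had -0.36. Ccl8 was below the mean level of 50 CPM needed to enter.

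**Figure D5:**
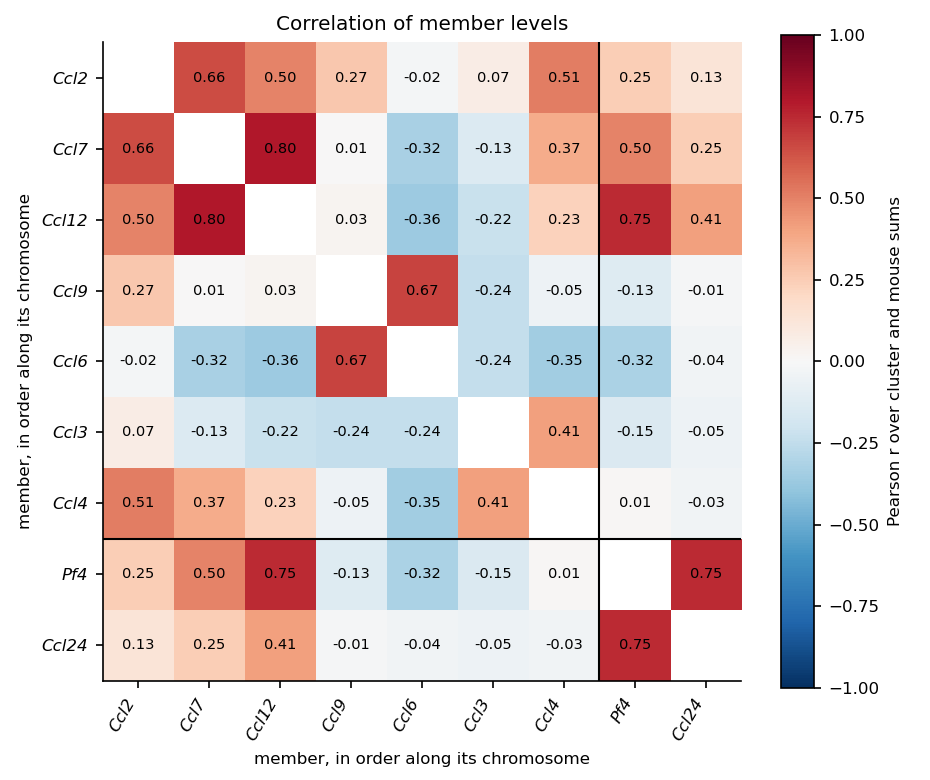
Pearson r of log2(CPM + 10) between 9 of the genes over 45 sums of a cluster in a mouse, in chromosome order, with lines between chromosome 11 and chromosome 5. The highest values are Ccl7 with Ccl12 (0.80) and Pf4 with Ccl12 and Ccl24 (0.75 each).

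Among 3101 genes, those most like each member in these sums differed from gene to gene. Pf4 went with Cd63 (r = 0.93), Selenop (0.92) and Cbr2 (0.92), and Ccl24 with Selenop (0.78) and Itm2b (0.76). Ccl12 went with Creb5 (0.87), Cd72 (0.85) and Dhrs3 (0.82), and Ccl7, after Ccl12, with Creb5 (0.71) and C5ar1 (0.69). Ccl3 went with the early response genes Atf3 (0.67), Ier5 (0.66) and Ppp1r15a (0.64), and Ccl4 with Lilrb4a (0.60), Egr1 (0.59) and Rhob (0.58). Ccl2, after Ccl7, went with Cxcl2 (0.62) and Ier3 (0.61). Ccl6 went with the interferon-induced genes Ifitm2 (0.74) and Ifitm3 (0.73) and with Sem1 (0.73), and Ccl9 with Card19 (0.70) and Dbi (0.69).

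In classical monocyte-like cells, which numbered only 15 in sham and 107 in DOCA-salt mice, 4 of the 10 genes could be tested and edgeR called 0 (0.0775% of 1291 genes), with 0 under an unadjusted 0.05 and 0 by DESeq2. Ccl6 there ran from 1628 to 2879 CPM in sham and from 1669 to 2246 CPM in DOCA-salt mice. The sham mice gave 5, 5, 1 and 4 of these cells, and all 4 entered this range and the test. Its log2 change was -0.15 ± 0.17, and that of Ccl9 was -0.09 ± 0.29. In nonclassical monocyte-like cells Ccl6 and Ccl9 were tested and 0 called (2.27% of 2206 genes), with 1 under an unadjusted 0.05 and 0 by DESeq2. Ccl6 was 1204, 993, 1657 and 1290 CPM in the sham mice and 798, 809, 1171 and 1054 CPM in the DOCA-salt mice. DOCA-salt mice 1 and 2 were below every sham mouse, and the log2 change was -0.42 ± 0.17 with an adjusted p of 0.288. Ccl4 in these cells, too low for the filter, was 30.9, 21.1, 15.2 and 17.7 CPM in the sham mice and 53.2, 130, 275 and 31.4 CPM in the DOCA-salt mice. It was the 1 gene of the 10 with every DOCA-salt mouse above every sham mouse, as for 3.72% of the genes tested there, which leave out genes too low for the filter.

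Lymphoid classes gave the same count of 0 calls in edgeR. In NK-like cells 4 genes were tested and 0 called (0.914% of 6568 genes), with 2 under an unadjusted 0.05, Ccl3 and Ccl4, and 0 by DESeq2. In T-like cells 3 were tested and 0 called (0.429%), with 1 under an unadjusted 0.05, Pf4, which DESeq2 called. In B-like cells 4 were tested and 0 called (1.6% of 8667 genes), with 1 under an unadjusted 0.05, Ccl6 at 0.43 ± 0.20 on the log2 scale, and 0 by DESeq2. Ccl2 and Ccl8, under the filter in B-like cells, were 1.15 against 5.31 CPM and 0.323 against 3.6 CPM (means of sham and DOCA-salt mice). They were the 2 of the 10 genes with every DOCA-salt mouse above every sham mouse there, as for 3.23% of genes tested. That share leaves out genes under the filter, as these 2 are. Neutrophil markers in B-like cells summed to 1.78 to 9.56 CPM in the sham mice and 41.2 to 63.6 CPM in the DOCA-salt mice. The part of free RNA from other cells in these low B-like levels was not tested.

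The receptors of these chemokines had distributions of their own. Ccr2 was 1285 ± 185 CPM in classical monocyte-like cells and 383 ± 186 in macrophage-like cells, and Ccr1, the receptor of Ccl6 and Ccl9, was 844 ± 144 in neutrophil-like cells. Ccr3, the receptor of Ccl24, was at most 1.97 CPM in any named class, and among these classes Ccr8 was highest in T-like cells at 10.2 CPM. Unnamed clusters were left out here, and Ccr8 was among the leading genes of the unnamed Cd163l1-led cluster of 146 cells. Ccr2 was 264 ± 179 CPM in sham and 502 ± 103 in DOCA-salt macrophage-like cells, with a log2 change of 0.97 and an adjusted p of 0.294. In nonclassical monocyte-like cells Ccr2 rose, from 192 to 464 CPM, by 1.04 on the log2 scale with an adjusted p of 0.0481 in edgeR. The 8 classical monocyte markers, of which Ccr2 is 1, summed to 1502 to 2249 CPM in sham and 3433 to 6690 CPM in DOCA-salt cells of this class, and their part in the rise was not tested.

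Other ligands and the gene lists linked to chemokine transcription were read in the same fits. In NK-like cells Ccl5, another CC ligand of these cells, fell from 20661 to 15444 CPM, by 0.46 on the log2 scale (adjusted p = 0.000981 in edgeR). Xcl1 rose there from 226 to 326 CPM, by 0.53 (adjusted p = 0.0397). In macrophage-like cells 0 of 15 tested early response genes passed in edgeR (2 under an unadjusted 0.05, median log2 change -0.21), and 0 of 9 tested NF-kB targets (3 under 0.05, median -0.26). Il1b, a cytokine of that list, was at -1.50 with an adjusted p of 0.143. Of 6 tested glucocorticoid-responsive genes 2 fell, where 0.176% of all genes tested were called, Per1 from 79.5 to 31.2 CPM (adjusted p = 0.0243) and Tsc22d3 from 946 to 434 CPM (adjusted p = 0.0314), and the list's median was -0.86 against 0.01 over all genes. In the Lyve1-led cluster, where 0.487% of all genes were called, 1 of 11 tested early response genes fell, Dusp1 by 2.21 (adjusted p = 4.38e-05). The list went both ways there, with 6 positive and 5 negative changes and a median of 0.02. Dusp1 is also in the glucocorticoid-responsive list, of which 2 of 4 tested fell in this cluster, Dusp1 and Tsc22d3 (by 1.19, adjusted p = 0.00285), with a median of -1.26. Of 7 tested NF-kB targets 1 fell, Nfkbia by 0.97 (adjusted p = 0.0129). Ccl4, in the same cluster, was at -0.88 and did not pass.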

How the data were processed

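RNA was measured by droplet sequencing of 5′ ends in pooled cardiac CD45+ cells, with 1 library per group. The authors deposited matrices of raw counts (UMIs per gene or antibody and cell) with lists of features and barcodes. The submitters' processing notes name Cell Ranger, Seurat 4 and the mm10 build without their roles, and the file headers give software version 3.1.0. Cells needed 200 genes and at most 10% mitochondrial UMIs. Each was assigned to a mouse where its top hashtag had at least 2 times the UMIs of the next, and doublets called by Scrublet (1.86% of sham and 3.28% of DOCA-salt cells) were removed. The filters left 4061 and 6865 cells, with 1760602 to 4032420 and 2700921 to 9057395 UMIs per mouse.

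Cells were clustered with scanpy 1.11.5 (2000 variable genes without the 10 described, 30 components, 15 neighbours, Leiden resolution 1). Clusters were named from at least 3 markers. The rules for mixed and tied markers, and the division of macrophages at resolution 0.5, were set after clusters were seen, and 5 of 16 clusters, with 1322 of 10926 cells, stayed unnamed. UMIs were summed per class and mouse, and the mouse is the replicate, per the labels. Groups were compared with edgeR 4.0.16 (quasi-likelihood test, TMM, filterByExpr) in R 4.3.3, with Benjamini-Hochberg adjustment over all genes of a class and a threshold of 0.05. All adjusted p come from edgeR unless DESeq2 1.42.0 or limma 3.58.1 is named. Levels across classes use mice with at least 5 cells.

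All 10 genes are given. Of other lists up to 4 genes with the largest change were eligible to be named, and of genes like each member the top 3 by Pearson r, over sums of at least 20000 UMIs and genes of at least 50 CPM. The genes and lists were chosen with earlier results of these data known. Alternatives covered filters, doublets, cluster resolution, equal cluster weights, DESeq2, and leaving out each mouse. The fits were tested on simulated counts. Positions are from GENCODE M21 (GRCm38) and promoters from RefSeq (GRCm38.p6). A receptor of the fixed list is not reported here.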

Additional observations from a re-analysis of the deposited data

Results flagged for a closer look

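In each group of 4 mice, the highest or lowest mouse was compared with the others by its gap relative to the whole range, against Dixon's 95% critical value. Of 98 groups examined 17 held such a mouse. The critical value gives about 1 in 20 only for independent values with a normal distribution. These groups share mice and cells, and some levels rest on few cells, so the count is no test against chance. All levels are CPM.

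In macrophage-like cells DOCA-salt mouse 1 had 413 of Ccl4, where the other DOCA-salt mice had 129 to 156, and 774 of Ccl6, where they had 1453 to 1504. Sham mouse 3 had 427 of Ccl7 (others 61.0 to 123) and 995 of Ccl12 (others 376 to 427).

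In the Lyve1-led cluster DOCA-salt mouse 2 had 557 of Ccl2 (others 44.3 to 116), and 61 of its molecules lay in 1 cell. Sham mouse 4 had 1171 of Ccl6 (others 624 to 684), and DOCA-salt mouse 4 had 347 of Ccl9 (others 287 to 295). Sham mouse 1 had 589 of Ccl24 (others 77.7 to 112), and sham mouse 2 had 120 of Ccl7 (others 92.0 to 95) and 1440 of Pf4 (others 2289 to 2342).

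In the Birc5-led cluster sham mouse 3 had 1591 of Ccl2 and 3544 of Ccl7, where the other sham mice had 0, and 6365 of Ccl12, where they had 0 to 1011.

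In the Egr1-led cluster sham mouse 3 had 295 of Ccl7 (others 26.0 to 66.3) and 63.3 of Ccl9 (others 156 to 174). DOCA-salt mouse 1 had 511 of Ccl7 (others 0 to 52.5), and sham mouse 1 had 133 of Ccl24 (others 26.0 to 43.5).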

How the results depend on the processing

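Against 0 genes called in edgeR in each set of classes, the fit without the filter on low counts called 3 in macrophage-like cells (Ccl6, Ccl8 and Ccl9), 6 in macrophage clusters (Ccl2, Ccl6 and Ccl9 in the Lyve1-led, Ccl7, Ccl8 and Ccl12 in the Birc5-led cluster), 1 in monocytes (Ccl4 in nonclassical cells) and 5 in lymphoid classes (Ccl2 and Ccl8 in B-like, Pf4 in T-like, Ccl3 and Ccl4 in NK-like cells). DESeq2 called 2 in macrophage clusters and 1 in lymphoid classes. In monocytes 1 was called with doublets kept (Ccl4) and 1 at Leiden resolution 0.5 (Ccl2), both in nonclassical cells. Leaving out 1 mouse at a time gave 0 to 1 call in macrophage-like cells, 0 to 2 in macrophage clusters and 0 to 1 in lymphoid classes. The mice concerned were sham 4 (Ccl6 and Ccl9 in Lyve1-led, Ccl4 in NK-like cells), DOCA-salt 1 (Ccl6 in macrophage-like, Lyve1-led and Birc5-led cells, Pf4 in T-like cells) and DOCA-salt 2 (Ccl4 and Ccl9 in Lyve1-led cells). The cause was not tested. Over 661 alternative values 592 had the sign of the main value and 21 passed the threshold. Resolution 0.5 gave no Lyve1-led cluster. No paired analysis was possible because a hashtag number names a mouse only within its own library and makes no pair across groups.

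Counts limit Ccl3, Ccl7, Ccl8 and Ccl24 most, and sham classical monocyte-like cells numbered 15. The number of genes called over all genes ranged over the alternatives from 2 to 131 in macrophage-like cells (8 as reported), 3 to 56 in the Lyve1-led cluster (14) and 26 to 126 in NK-like cells (60). Other ranges were 19 to 157 in T-like (28), 66 to 303 in B-like (139), 26 to 217 in nonclassical (50) and 1 to 17 in classical monocyte-like cells (1), 0 to 8 in the Birc5-led (1) and 0 to 7 in the Egr1-led cluster (5).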

Other observations

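A group of 10 cells, chosen after their values were seen, held the highest levels of Ccl3, Ccl4 and Ccl6 outside the classes described. They formed a cluster of their own only when the chemokines were kept among the variable genes. The cluster was led by Cyp11a1 and the cells held 242 UMIs of Hdc, the enzyme of histamine synthesis, 45 of Gata2 and 30 of Cpa3, genes known from basophils and mast cells. Without the chemokines the 10 cells lay in the unnamed Cd163l1-led cluster of 146 cells. There they carried 369 of 370 Ccl3, 646 of 647 Ccl4, 509 of 527 Ccl6 and 63 of 67 Ccl9 molecules. Pooled, they had 9859 CPM of Ccl3, 17260 of Ccl4, 13600 of Ccl6 and 1683 of Ccl9, with 1 molecule of Pf4 and 0 of Ccl2, Ccl7, Ccl8, Ccl12 and Ccl24. Sham mice gave 6 of the cells (1, 1, 1 and 3) and DOCA-salt mice 4 (2, 0, 0 and 2).

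The unnamed Cbr2-led cluster of 378 cells, which showed B cell and macrophage genes together, had 376 ± 70.3 CPM of Pf4 (SD, n = 8 mice), 223 of Ccl6 and 126 of Ccl12.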
